A study of Mus musculus with 4 samples.

Results

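The heterogeneous nuclear ribonucleoproteins (hnRNPs) described here are 10 genes of the mouse family, Hnrnpa1, Hnrnpa2b1, Hnrnpa3, Hnrnpc, Hnrnpd, Hnrnpf, Hnrnph1, Hnrnpk, Hnrnpm and Hnrnpu. They were chosen by name, as genes whose symbol in the deposited expression table equals a listed family member, and make up 10 of the 22667 genes in that table. All splicing events that the deposited tables assign to these genes were taken with them, 93 of 91656 events. Messenger RNA levels of the 10 genes were lower after Arglu1 knockdown in both pairs of libraries, although for Hnrnpc in vehicle the difference lay within counting error. The differences stayed under the fold used to call a change. In splicing, 1 of the 55 events that could be compared passed the threshold in each pair, an exon of Hnrnpa2b1. That share of 1.82% was close to those of all comparable events, 1.96% in vehicle and 1.52% in Dex.

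The study measured mRNA by RNA sequencing in Neuro-2a (N2a) cells, a mouse neuroblastoma line, to ask how the protein ARGLU1 takes part in glucocorticoid signaling and in alternative splicing. The cells were transfected for 48 h with non-targeting control siRNAs (siControl) or with siRNA that targets Arglu1 (siArglu1), and were treated for 4 h with vehicle (EtOH, Veh) or with 100 nM dexamethasone (Dex), a synthetic ligand of the glucocorticoid receptor. The 4 groups were thus siControl Veh, siArglu1 Veh, siControl Dex and siArglu1 Dex, in which order values are listed, all in DMEM with serum and all exposed to the transfection reagent. RNA from 3 cultures was pooled into 1 library for each group, so there were no replicate libraries, no spread between cultures could be measured and no p-value here rests on replicates. A single tumor-derived line and a transient knockdown, incomplete by read count, limit what the groups can stand for.

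hnRNPs are abundant RNA-binding proteins that coat nascent transcripts in the nucleus and affect splice site choice, 3′ end formation, export and stability of mRNA. Several of them, with hnRNP A1 and hnRNP A2/B1 among the best known, tend to favor exon skipping, while SR proteins tend to favor inclusion. Many hnRNP genes also control their own level through alternative exons that expose the transcript to nonsense-mediated mRNA decay (NMD), the pathway that removes mRNAs with a stop codon upstream of an exon junction.

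Exons that bear on the splicing results are shown first. Each is printed 5′ to 3′ as spliced RNA in DNA letters, from GENCODE M21 on mouse build GRCm38, with the alternative exon in capitals and the last and first 6 bases of its annotated neighbors in lower case. The deposited coordinates are on build mm9, so exons were paired with the annotation by their length and by the lengths of both flanking introns, and 24 of the 32 cassette and microexon events of the family could be paired. The Hnrnpa2b1 exons are shown because that gene held the event that passed the splicing threshold. The 120-nt exon lies at chr6:51464428-51464547 on the minus strand, encodes 40 codons of the glycine-rich tail, and consists of G for 44.2% of its bases. The 36-nt exon lies at chr6:51467391-51467426 on the minus strand and encodes the 12 residues that tell the B1 protein from the shorter A2 protein.
Hnrnpa2b1 120-nt exon: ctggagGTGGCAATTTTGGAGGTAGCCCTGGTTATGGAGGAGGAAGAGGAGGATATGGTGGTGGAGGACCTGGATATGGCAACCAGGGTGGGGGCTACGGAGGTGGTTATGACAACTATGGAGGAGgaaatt
Hnrnpa2b1 36-nt exon: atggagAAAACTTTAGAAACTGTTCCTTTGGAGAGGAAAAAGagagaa
A coding exon of Hnrnpd and a microexon of Hnrnpm are also given, which were included at intermediate levels and differed less between siControl and siArglu1 than the 120-nt exon did. They lie at chr5:99963731-99963877 and at chr17:33658900-33658914, both on the minus strand, and encode 49 and 5 codons. The lengths of all 4 printed exons are multiples of 3, so including or skipping them keeps the reading frame.
Hnrnpd 147-nt exon: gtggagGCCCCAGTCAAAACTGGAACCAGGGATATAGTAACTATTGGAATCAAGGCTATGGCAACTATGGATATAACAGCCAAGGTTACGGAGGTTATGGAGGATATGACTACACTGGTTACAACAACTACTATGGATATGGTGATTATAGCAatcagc
Hnrnpm 15-nt microexon: ctgcagGGATGGGAATGGAAGgcatgg

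The libraries held between 66074574 and 86541444 reads on genes. Arglu1, the targeted gene, had 92.6 cRPKM in siControl and 23.8 in siArglu1 under vehicle, and 99.9 and 22.6 under Dex, where cRPKM is the read count scaled to the mapped reads of the library and to the uniquely mappable length of the transcript. Its level after knockdown was 26.3% of siControl in vehicle and 22.5% in Dex. The paper reports a larger reduction of the mRNA by qPCR, and of the protein by Western blot. Of 8 neuronal markers, 6 were at 1 cRPKM or more in every library, while the neurofilament genes Nefl and Nefm were at 0.03 cRPKM or less. Of 10 markers of glia, blood, vessels and fibroblasts, at most 1 reached 1 cRPKM in any library. The neuronal markers summed to 1102 and 1026 cRPKM in the siControl libraries and to 1494 and 1394 in the siArglu1 libraries, with Tubb3, Stmn2, Gap43 and Elavl4 higher and Map2 and Ncam1 lower in siArglu1 than in siControl in both pairs, and their part in the hnRNP values was not tested. In RNA from whole cultures, fewer cells of a type and less RNA per cell cannot be told apart.

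All 10 genes were expressed at high levels. In siControl Veh, the lowest of them, Hnrnpd, was above 92.2% of the 12497 genes that held at least 75 reads over the 4 libraries, and the highest, Hnrnpa1, was above 99.4%. Together they took 0.787% of the reads on genes in siControl and 0.629% in siArglu1 under vehicle, and 0.784% and 0.62% under Dex. The share was thus close between vehicle and Dex and lower in both siArglu1 libraries. Reads per gene ran from 2512 for Hnrnpa3 in siArglu1 Veh to 130604 for Hnrnpa2b1 in siControl Dex, which makes counting error small for all of them except Hnrnpa3.

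On the per-length cRPKM scale the order in siControl Veh was Hnrnpa1, Hnrnpa2b1, Hnrnpu, Hnrnpk, Hnrnph1, Hnrnpf, Hnrnpa3, Hnrnpc, Hnrnpm and Hnrnpd. Neighbors in this order differed beyond the 95% counting intervals of their reads, except Hnrnph1 and Hnrnpf, whose intervals overlapped in siControl Veh and in siArglu1 Veh, and Hnrnpa3 and Hnrnpc, whose intervals overlapped in siArglu1 Veh. The pair Hnrnph1 and Hnrnpf traded places in both Dex libraries, and Hnrnpu stood above Hnrnpa2b1 in siArglu1 Dex only. The plot of levels by library shows the same order.

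**Figure D1:**
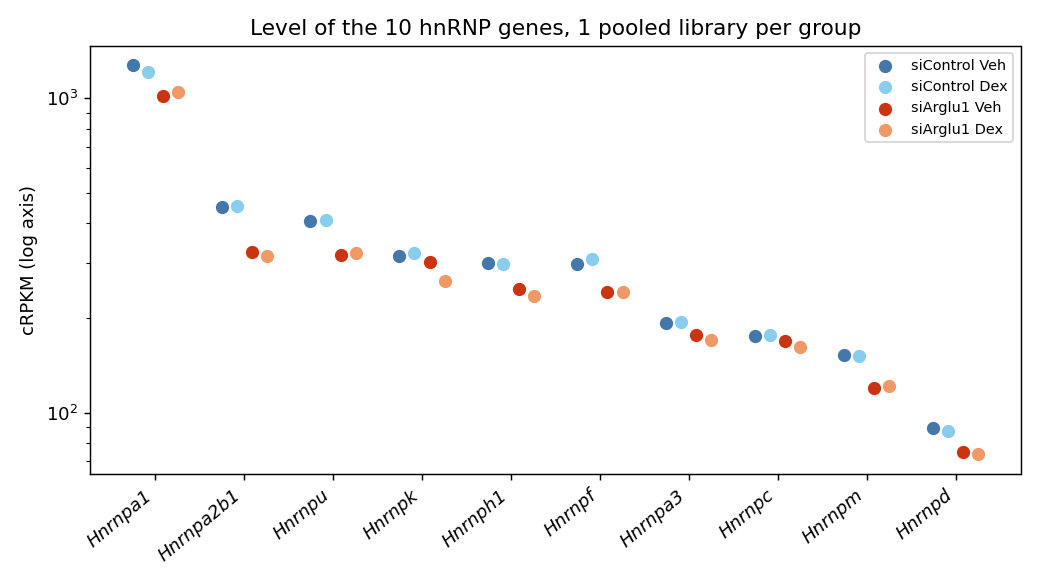
Level of each hnRNP gene in cRPKM on a log axis, with 1 point for each of the 4 pooled libraries and no error bars because there are no replicate libraries. Hnrnpa1 is highest in every library, at 1016 to 1272 cRPKM, Hnrnpd is lowest, at 73.7 to 89.6, and both siArglu1 points lie below both siControl points for each of the 10 genes.

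The first question was whether loss of ARGLU1 altered the mRNA of these genes. A gene was called changed when its log2 ratio of TMM-scaled CPM (read counts per library size) was at least 0.81 in size in a pair of libraries, a rule of size that 15.8% of all 12497 genes passed in vehicle and 12.1% in Dex. None of the 10 hnRNP genes passed it in either pair. All 10 had log2 ratios below 0 in both pairs, against 49.7% of all genes in each, with a median of -0.25 in vehicle and -0.31 in Dex beside medians of 0.00 for all genes. The vehicle pair and the Dex pair share no library. Each percentage of siControl below is given with a 95% interval that covers counting error only and not the differences between cultures.

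Among the A/B proteins, which form the core of hnRNP particles, Hnrnpa2b1 stood lowest relative to siControl, an order that turned in vehicle when the trend of the ratios on mappable length was removed (log2 ratios of -0.57 for Hnrnpa1, -0.37 for Hnrnpa3 and -0.29 for Hnrnpa2b1). Hnrnpa2b1 (ENSMUSG00000004980, chr6:51460932-51469894 in GRCm38) encodes hnRNP A2 and B1, which bind UAG and G-rich motifs in splicing and in mRNA transport. It had 452 cRPKM in siControl and 324 in siArglu1 under vehicle, and 454 and 315 under Dex. The siControl libraries were nearly equal and both siArglu1 libraries lay well under them. Its level after knockdown was 73.4% of siControl (72.7 to 74.0) in vehicle and 68.9% (68.4 to 69.5) in Dex, log2 ratios of -0.45 and -0.54. Of all genes tested, 20.9% had a lower log2 ratio than Hnrnpa2b1 in vehicle and 12.8% did in Dex.

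Hnrnpa1 (ENSMUSG00000046434, chr15:103240432-103246692) encodes hnRNP A1, a shuttling repressor of splice sites. It had 1272 cRPKM in siControl and 1016 in siArglu1 under vehicle, and 1214 and 1044 under Dex. Here too the libraries of the siRNA groups did not overlap, and the level was 81.7% of siControl (80.9 to 82.5) in vehicle and 85.5% (84.8 to 86.3) in Dex. Hnrnpa3 (ENSMUSG00000059005, chr2:75659261-75669407), a close relative with roles in cytoplasmic mRNA trafficking, had 193, 176, 195 and 170 cRPKM in the same order. These values rest on 2512 to 3146 reads and on an implied uniquely mappable length of 214 nt, against 1073 to 4271 nt for the other genes, so its level is uncertain where copies share its sequence. The level of Hnrnpa3 was 93.5% of siControl (88.6 to 98.8) in vehicle and 86.7% (82.4 to 91.2) in Dex.

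The scaffold and core proteins differed among themselves. Hnrnpu (ENSMUSG00000039630, chr1:178321108-178337797), which encodes the large nuclear scaffold protein also called SAF-A that ties RNA to chromatin, had 409 cRPKM in siControl Veh and 409 in siControl Dex. In the siArglu1 libraries it had 317 and 321, which was 79.5% of siControl (78.7 to 80.2) in vehicle and 78.1% (77.5 to 78.8) in Dex, log2 ratios of -0.33 and -0.36. Hnrnpc (ENSMUSG00000060373, chr14:52073377-52104028) encodes hnRNP C, which binds uridine tracts and keeps cryptic exons out of mRNA. Hnrnpc had 176 cRPKM in siControl and 169 in siArglu1 under vehicle, and 177 and 161 under Dex. It was the member closest to its control, at 98.6% in vehicle (97.0 to 100.1), an interval that included 100%, and at 90.9% in Dex (89.6 to 92.2).

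Hnrnpf and Hnrnph1 encode related proteins that bind runs of G through quasi-RRM domains and act on splicing and polyadenylation. Hnrnpf (ENSMUSG00000042079, chr6:117900324-117925622) had 297 cRPKM in siControl and 242 in siArglu1 under vehicle, and 308 and 242 under Dex. Hnrnph1 (ENSMUSG00000007850, chr11:50376990-50386528) had 299, 247, 298 and 236 in the same order. Their ratios were similar, at 83.5% of siControl (82.3 to 84.7) in vehicle and 78.1% (77.1 to 79.1) in Dex for Hnrnpf, and at 84.6% (83.5 to 85.8) and 78.6% (77.6 to 79.6) for Hnrnph1.

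The remaining members bind other sequences. Hnrnpm (ENSMUSG00000059208, chr17:33646233-33686860), a regulator of GU-rich splicing elements, had 153 cRPKM in siControl and 120 in siArglu1 under vehicle, and 152 and 122 under Dex. Its level was 80.2% of siControl (78.8 to 81.7) in vehicle and 79.9% (78.6 to 81.2) in Dex, log2 ratios of -0.32 in each, the closest match between the pairs among the 10 genes. Hnrnpd (ENSMUSG00000000568, chr5:99955935-99978938) encodes AUF1, which binds AU-rich elements and affects mRNA decay, and had 89.6, 74.9, 87.7 and 73.7 cRPKM in siControl Veh, siArglu1 Veh, siControl Dex and siArglu1 Dex. Its siArglu1 level was 85.5% of siControl (84.0 to 87.1) in vehicle and 83.5% (82.1 to 85.0) in Dex.

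Hnrnpk (ENSMUSG00000021546, chr13:58391142-58403343), a KH-domain protein that binds C-rich RNA and DNA, had the widest gap between its pairs, although not with the length trend removed. It had 316 cRPKM in siControl and 301 in siArglu1 under vehicle, and 322 and 262 under Dex. Only the siArglu1 Dex library stood well below the other 3. The level was therefore 97.6% of siControl (96.0 to 99.2) in vehicle and 81.1% (79.8 to 82.3) in Dex, log2 ratios of -0.04 and -0.30, which became -0.27 and -0.43 with the length trend removed. With 1 library in each group, a difference that belongs to siArglu1 Dex cannot be told apart from a difference of that library.

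**Figure D2:**
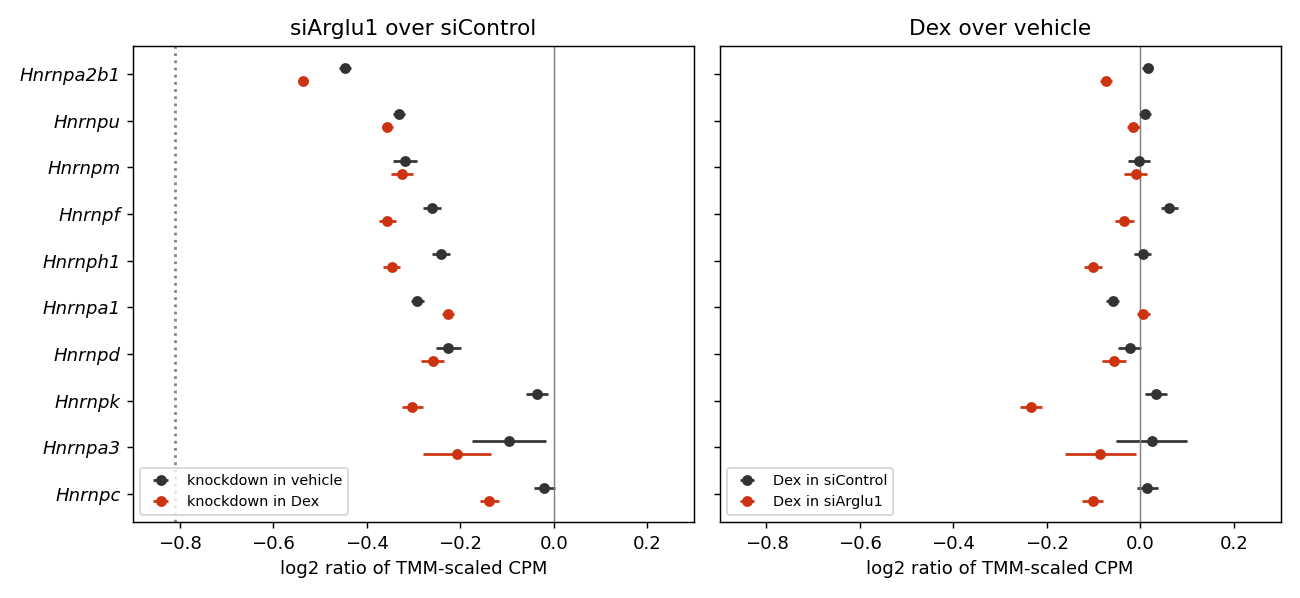
Log2 ratio of each hnRNP gene between siArglu1 and siControl (left) and between Dex and vehicle (right), with 1 point for each pair of libraries and bars for the 95% interval of counting error. The left points all lie below 0 and none reaches the dotted line at -0.81, with Hnrnpa2b1 lowest at -0.45 and -0.54, and the right points lie between -0.23 and 0.06.

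A model that adds a knockdown term and a Dex term over all 4 libraries (edgeR quasi-likelihood, Benjamini-Hochberg adjustment over all genes) called 7 of the 10 lower after knockdown, where 30.9% of all genes were called lower. The adjusted p of those 7 in edgeR ran from 1.25e-06 for Hnrnpa2b1 to 0.012 for Hnrnpa1, and Hnrnpk, Hnrnpa3 and Hnrnpc were at 0.0883, 0.13 and 0.451. This model takes its error from how far the effects depart from adding up, with 1 residual degree of freedom, and not from replicate cultures. The 30.9% covers genes of all levels, while the 10 genes lay above 92.2% to 99.4% of the genes in siControl Veh. A share among genes of similar level was not counted. With the trend of the ratios on mappable length removed, all 10 genes still had log2 ratios below 0 in both pairs, with medians of -0.30 in vehicle and -0.35 in Dex, but single values and the order of the genes moved. The log2 ratio in vehicle then became -0.20 for Hnrnpu and -0.05 for Hnrnpd, and that in Dex -0.37 for Hnrnpa1 and -0.47 for Hnrnpa2b1. The sizes of the single differences therefore depend on how mappable length is treated, more than their sign does.

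The wider family was compared through a list of 17 other hnRNP genes. None of them passed 0.81 in either pair, 14 of 17 were below 0 in each, and the medians were -0.22 in vehicle and -0.27 in Dex. By the mean of both pairs Syncrip, which encodes hnRNP Q, was lowest, with 34.5 cRPKM in siControl and 20.0 in siArglu1 under vehicle, and 33.7 and 21.2 under Dex and log2 ratios of -0.76 and -0.68. Rbmx, which encodes hnRNP G, followed at -0.66 and -0.67, and Hnrnpl, which binds CA repeats, at -0.50 and -0.57. The order differed within a pair, as Hnrnpul1 and Pcbp2 lay below Hnrnpl in vehicle at -0.63 and -0.52, and with the length trend removed Syncrip was at -0.39 and -0.50. The highest were Hnrnph2, the X-linked relative of Hnrnph1, at 0.34 and 0.33, Raly at 0.17 and 0.00, and Hnrnph3 at 0.08 and 0.09, and with the length trend removed Raly turned to -0.09 in Dex and Hnrnph3 to -0.01 in vehicle. Hnrnph2 thus lay on the other side of 0 from Hnrnph1 and Hnrnpf, with 46.5, 57.5, 45.1 and 57.1 cRPKM in siControl Veh, siArglu1 Veh, siControl Dex and siArglu1 Dex.

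**Figure D3:**
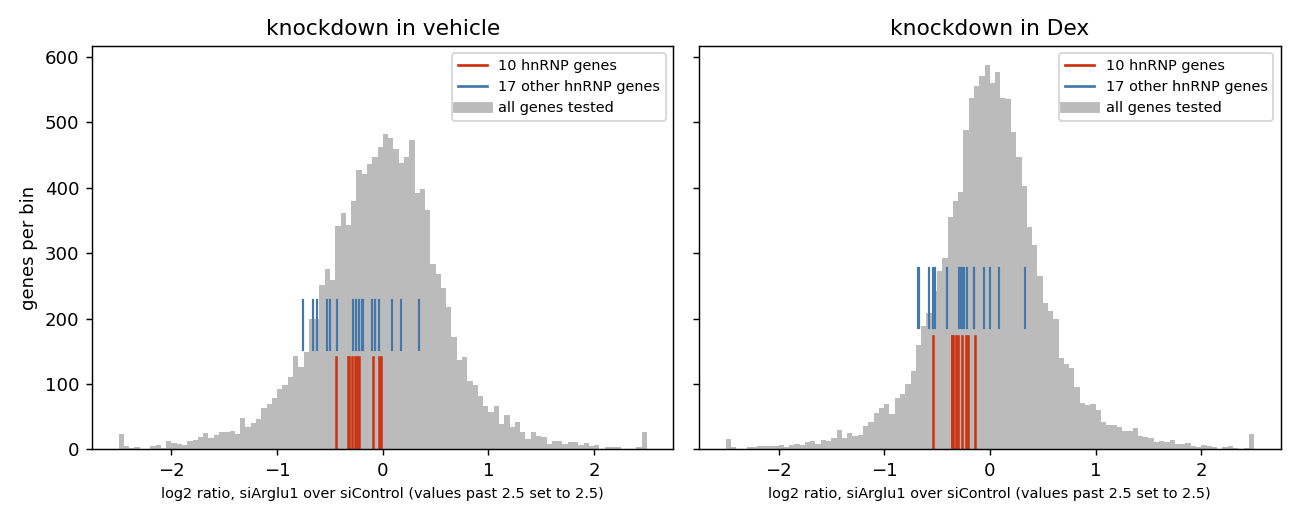
Histogram of the log2 ratio of siArglu1 over siControl for all 12497 genes tested, in vehicle (left) and in Dex (right), with red lines for the 10 hnRNP genes and blue lines for the 17 other hnRNP genes. The red lines span -0.45 to -0.02 on the left and -0.54 to -0.14 on the right, inside the bulk of all genes.

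Genes of the pathway that removes unproductive transcripts were read from a short list. Of 12 NMD and exon junction genes, 2 fell past the fold in vehicle and the same 2 in Dex. Of all genes, 8.77% fell past it in vehicle and 5.93% in Dex, and the share past it in both pairs was not counted. None of the 12 was higher past it. The list was mixed, with 7 of the 12 below 0 in each pair, medians of -0.19 and -0.23, and a highest log2 ratio of 0.48 in each. Upf2, which bridges UPF1 and UPF3 in NMD, had 17.6 and 17.7 cRPKM in the siControl libraries and 6.8 and 7.56 in the siArglu1 libraries, log2 ratios of -1.34 and -1.23. Smg6, the NMD endonuclease, had 12.6 and 12.0 against 5.79 and 6.85, log2 ratios of -1.08 and -0.82 that became -0.77 and -0.67, short of the fold, with the length trend removed. Whether these differences bear on hnRNP transcripts was not tested.

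The second question was whether 4 h of Dex altered these genes. A log2 ratio of at least 1 was required, which 0.464% of all genes reached in siControl and 0.392% in siArglu1, and none of the 10 hnRNP genes did in either. In siControl, Dex levels ran from 96.0% of vehicle for Hnrnpa1 (95.1 to 96.8) to 104.4% for Hnrnpf (103.0 to 105.7), with a median log2 ratio of 0.01. In siArglu1 they ran from 85.1% for Hnrnpk (83.7 to 86.5) to 100.5% for Hnrnpa1 (99.5 to 101.4), with a median of -0.07, and 9 of 10 were below 0 beside 50.2% of all genes. The siControl and siArglu1 comparisons share no library. The additive model gave an adjusted p of 0.999 for the Dex term of each of the 10 in edgeR and called 1.04% of all genes.

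The third question was how the transcripts of these genes were spliced. Inclusion was read from the deposited PSI values (percent spliced in), which give how often an exon was kept, or a splice site used, among the transcripts that could have done so. Of the 93 events, 55 had a PSI in all 4 libraries and read support scored LOW or above in no fewer than 3, namely 19 cassette exons, 1 microexon, 19 alternative 3′ splice sites and 16 alternative 5′ splice sites. The other 38 could not be compared, with all 12 events of Hnrnpa3 and 5 of 6 of Hnrnpk among them. In the splice site tables LOW means 20 to 39 reads, OK 40 to 99 and SOK 100 or more.

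At a threshold of 15 PSI, 1 of the 55 events passed in each knockdown pair, beside 1.96% of all 57183 comparable events in vehicle and 1.52% in Dex. None passed in either Dex comparison, beside 0.719% in siControl and 0.948% in siArglu1. At 10 PSI, 4 passed in vehicle and 1 in Dex after knockdown, beside 4.4% and 3.66% of all events. After knockdown, the median size of difference over 66 exons and sites was 0.08 PSI in vehicle and 0.12 PSI in Dex. Over the whole series it was 0.58 and 0.57 PSI. The shares within 5 PSI were close to those of the series, at 89.4% and 87.9% against 88.5% and 89.7%. Depth was not matched, as all 55 events scored OK or better in all 4 libraries, against 46423 of the 57183. A PSI between 10 and 90 in at least 1 library was found for 14 of the 55 events (25.5%) and for 16.6% of all comparable events.

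The event that passed was a 73-nt exon in the 3′ part of Hnrnpa2b1, at chr6:51411982-51412054 in the mm9 coordinates of the tables. It had a PSI of 29.0 in siControl and 11.8 in siArglu1 under vehicle, and 30.7 and 11.7 under Dex. The siControl libraries were close to each other, as were the siArglu1 libraries, with nothing in between. Inclusion fell by 17.2 PSI with knockdown in vehicle and by 19.0 PSI in Dex, while the Dex differences were 1.62 PSI in siControl and -0.10 PSI in siArglu1. The score was SOK in all 4 libraries, and binomial intervals at 100 reads, the fewest that score stands for in the splice site tables, were 20.4 to 38.9 and 6.36 to 20.0 in the vehicle libraries and 22.1 to 41.0 and 6.36 to 20.0 in the Dex libraries. The exon lies within an annotated 136-nt exon of the 3′ UTR, on the minus strand at chr6:51461920-51462055 of GRCm38, which occurs in protein-coding and in NMD transcripts. Splicing within the 3′ UTR of this gene is a known route to NMD-sensitive hnRNP A2/B1 mRNA, and here the mRNA level and the inclusion of the exon were both lower in the siArglu1 libraries, and whether one bears on the other was not tested.

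The coding exons of Hnrnpa2b1 differed less. Its 120-nt exon, in the glycine-rich tail, had a PSI of 72.0 in siControl and 61.9 in siArglu1 under vehicle, and 72.4 and 63.5 under Dex, differences of -10.07 and -8.91 that stayed under 15 PSI. The intervals at 100 reads, 62.1 to 80.5 and 51.7 to 71.5 in the vehicle libraries, overlapped, but the true depth was probably higher. Under vehicle, the event at the 3′ site of this exon held 1274 junction reads with siControl and 774 with siArglu1. Narrower intervals at that depth were not computed, so whether the difference exceeds counting error was not tested. The 36-nt B1 exon, named here after its values were seen, had a PSI of 4.05, 7.14, 3.51 and 6.98 in the same order. It was little used in all libraries and lay slightly higher in both siArglu1 libraries. Its intervals at 100 reads, 1.1 to 9.93 and 2.86 to 13.9 in vehicle, overlapped. The reads at this exon were not given, but a nearby 5′ site event of the gene held 7710 under vehicle with siControl and 4515 with siArglu1. The overlap at 100 reads therefore does not settle whether this difference exceeds counting error.

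Hnrnpa1 showed the next largest differences. The exon of the A1-B protein, listed at 153 nt, had a PSI of 39.0 in siControl and 25.7 in siArglu1 under vehicle, and 39.9 and 30.1 under Dex. The exon after it, listed at 141 nt, had 25, 13.4, 24.8 and 16.6. Both were lower in the siArglu1 libraries, with differences of -13.3 and -11.6 PSI in vehicle and -9.87 and -8.19 PSI in Dex, and neither passed 15 PSI. Both are complex events in the tables, and the score for balance of junction reads was not OK for either of them in any library. The first also carries a further score of N, whose meaning for cassette events was not given in the sources used here, while the second carries SOK there.

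The splice sites of these same Hnrnpa1 exons were measured with 76 to 183 junction reads a library, although the gene held 72563 to 96922 reads. Whether unique mapping limits the PSI values of these exons was not tested. The 5′ site that lengthens the first exon by 4 nt had a PSI of 32.6 in siControl and 23.9 in siArglu1 under vehicle, and 33.0 and 27.6 under Dex. At the 3′ sites of the second exon, the site that adds 21 nt had 34.5, 26.3, 34.9 and 29.9, and the site that adds 25 nt had 65.1, 73.4, 64.8 and 69.7. The direction was the same in both knockdown pairs, the differences were 4.92 to 8.65 PSI in size, and the events share exons and are not separate pieces of evidence.

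The cassette exons of Hnrnpd, which set the 4 AUF1 isoforms, differed little. Its 147-nt exon had a PSI of 50.6 in siControl and 47.0 in siArglu1 under vehicle, and 49.3 and 47.8 under Dex. Its 57-nt exon had 71.7, 68.3, 70.2 and 70.3. The largest knockdown difference of either was -3.6 PSI, for the 147-nt exon in vehicle. The interval of this exon at 100 reads was 40.8 to 61.1 in siControl Veh, but its 3′ site event held 1419 junction reads there and 1137 in siArglu1 Veh. Intervals at such depth would be narrower and were not computed, so whether the difference exceeds counting error was not tested. The 71-nt exon of Hnrnpd that is annotated in NMD transcripts only, also named after its values were seen, was at 2.55 to 2.91 in all libraries.

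In Hnrnph1, a 60-nt exon had a PSI of 87.2 in siControl and 90.1 in siArglu1 under vehicle, and 86.5 and 90.9 under Dex, and a 50-nt exon had 83.9, 84.0, 84.3 and 83.7. An alternative 5′ site of Hnrnph1 that adds 39 nt was deeply read, with 2378 to 3272 junction reads a library, and had a PSI of 9.96, 7.13, 10.0 and 6.67. Its counting intervals, 8.95 to 11.04 in siControl Veh and 6.15 to 8.26 in siArglu1 Veh, did not overlap although the difference was only -2.83 PSI. In Hnrnpf, the 5′ site that adds 39 nt had 38.0, 34.0, 40.1 and 35.3 with 48 to 94 reads. Hnrnph1 and Hnrnpf thus held small differences in the same direction at these sites, and the depth at Hnrnpf cannot resolve one of that size.

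At the 3′ sites of Hnrnpc no difference reached 15 PSI. The site that adds 24 nt had a PSI of 63.3 in siControl and 63.6 in siArglu1 under vehicle, and 65.8 and 60.3 under Dex, with 1669 to 2334 reads. The site that adds 3 nt had 27.6, 27.2, 25.4 and 29.1. The largest difference in size at these sites in any of the 4 comparisons was -5.49 PSI, between siControl Dex (63.6 to 68.0) and siArglu1 Dex (58.3 to 62.3), whose counting intervals for the 24-nt site did not overlap.

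The 15-nt microexon of Hnrnpm had the largest Dex differences among the 66 exons and sites compared. It had a PSI of 26.6 in siControl and 22.9 in siArglu1 under vehicle, and 21.4 and 16.1 under Dex. Both Dex libraries lay below their vehicle libraries, with differences of -5.18 and -6.78 PSI, and both siArglu1 libraries lay below their siControl libraries, with differences of -3.67 and -5.27 PSI. None of these passed 15 PSI, and the intervals at 100 reads, 18.6 to 36.8 in siControl Veh and 13.5 to 30.3 in siControl Dex, overlapped. In siArglu1 Veh, which enters the differences of -6.78 and -3.67 PSI, the microexon scored only OK and no interval was computed. Hnrnpu and Hnrnpk held no comparable event with a PSI between 10 and 90.

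**Figure D4:**
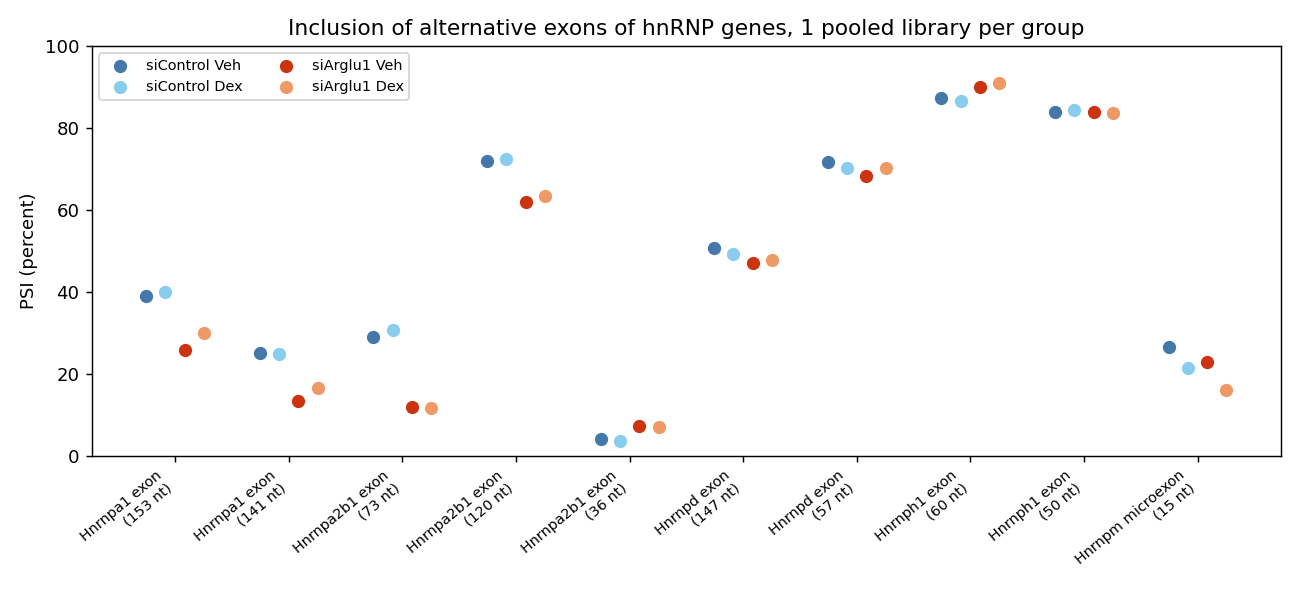
Inclusion (PSI, in percent) of 10 alternative exons of 5 hnRNP genes, with 1 point for each of the 4 pooled libraries. The 73-nt Hnrnpa2b1 exon of the 3′ UTR separates the siControl libraries (29.0 and 30.7) from the siArglu1 libraries (11.8 and 11.7), the Hnrnpa1 exons do so by less, and the Hnrnpd and Hnrnph1 exons lie within 5 PSI in all libraries.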

How the data were processed

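Per the labels and the study's methods, RNA from 3 cultures a group was pooled and poly(A)-enriched TruSeq V2 libraries were sequenced. The authors deposited read counts per gene and cRPKM values, an RPKM per uniquely mappable length, and PSI values as percent with scores for read support. The submitters' processing notes name Bowtie and mm9, and their versions were not given in the sources used here. Also present were 2 columns of the authors' Dex over vehicle ratios, which were not used.

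Counts of 66074574 to 86541444 reads a library were scaled by TMM (edgeR 4.0.16, limma 3.58.1, DESeq2 1.42.0, R 4.3.3, Python 3.11.15). Genes with at least 75 reads over 4 libraries were compared by log2 ratio with a prior count of 1, calling 0.81 for knockdown and 1 for Dex. Events needed a PSI in 4 libraries, LOW or better in 3, and 15 PSI. Exact binomial intervals (95%) cover counting error only. Sites of 1 event count once.

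Named were all 10 members, the 3 highest and 3 lowest other hnRNP genes by mean knockdown ratio, NMD genes past the fold in both pairs, and comparable events past 15 PSI or with OK scores and a PSI of 10 to 90. Members and lists were chosen with earlier results of these data known. Alternatives were other scalings, filters, thresholds, a length trend and an additive edgeR model. The scripts were tested on simulated data. Some list and sequence results are not reported here.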

Additional observations from a re-analysis of the deposited data

Results flagged for a closer look

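The difference between Dex and vehicle had opposite signs in siControl and siArglu1 for 3 of the genes, with both counting intervals clear of 0. The log2 ratio was 0.0159 in siControl and -0.0741 in siArglu1 for Hnrnpa2b1, 0.0619 and -0.0339 for Hnrnpf, and 0.0342 and -0.23 for Hnrnpk. With 1 library in each group whether the ratios differ was not tested, and for Hnrnpf the sign in siArglu1 turned to 0.01 when the trend on mappable length was removed.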

How the results depend on the processing

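No hnRNP gene passed the fold under DESeq2 size factors, library totals, deposited cRPKM with a pseudocount of 0.1, no filter on reads, a prior count of 5 or the length trend removed, in any of the 4 comparisons. At a log2 threshold of 0.5, 1 gene passed with knockdown in Dex (Hnrnpa2b1) and 0 in the other comparisons. The additive edgeR model at an adjusted p of 0.05 called 7 genes for knockdown and 0 for Dex. The sign of all 10 knockdown ratios held under each scaling, and the sign of the Dex ratio turned for 5 genes, Hnrnpa3, Hnrnpf, Hnrnph1, Hnrnpm and Hnrnpu, under library totals, deposited cRPKM or the length trend removed.

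For splicing, 4 events passed 10 PSI with knockdown in vehicle, beside 4.4% of all events, and 1 in Dex. At 25 PSI none passed. With no minimum on the score, 14 and 16 of 84 events passed for knockdown in vehicle and in Dex (16.67 and 19.05%), beside 6.85 and 6.11% of all events. For Dex, 11 passed in each of siControl and siArglu1 (13.1% in each), beside 5.30 and 5.73%. The shares of the family were thus above those of all events here, and the events added by this setting fell short of the minimum on read support. Requiring OK in all 4 libraries or leaving out complex or unbalanced events gave 1, 1, 0 and 0. Recomputing PSI from junction reads was not run, since the tables give only the total reads of an event. No paired analysis was possible because each group has 1 library. Depth does not limit the gene levels, while Hnrnpa3 and the splice sites of Hnrnpa1 and Hnrnpf rest on few reads.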
